A study of Mus musculus with 12 samples.

Results

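The transcriptome of C2C12GFP cells on Collagen I-coated plates was compared with that of the same cells on uncoated plates, the control condition. C2C12 is a mouse skeletal muscle myoblast line whose cells leave the cell cycle and fuse into multinucleated myotubes in low-serum medium, and the C2C12GFP cells used here also express green fluorescent protein. The comparison rests on 6 of the 12 samples of the study, 3 for each condition, and on 14499 of the 55536 genes counted, which are those that passed a filter on low counts. The other 6 samples came from fibronectin (3) and Geltrex™ (3), a thin basement membrane gel, and all 4 groups shared the cell line and the culture media. Collagen I was applied in dilute acid, the coated plates were rinsed before seeding, and the sources used here do not say whether the uncoated plates received that solvent, on which day of differentiation RNA was taken or whether the 3 samples of a group came from separate cultures, so p-values measure the spread between these samples, which may be technical. Fusion need not be complete in such cultures, and in bulk RNA fewer cells of a kind cannot be told apart from less RNA per cell.

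Collagen I is the main fibrillar collagen of the connective tissue around muscle fibers. Cells bind it through integrins that pair the β1 chain with α1, α2, α10 or α11, and through the discoidin domain receptors Ddr1 and Ddr2, which are kinases. Integrin binding leads to focal adhesions, which connect the matrix to actin and to kinase signaling, while muscle differentiation itself runs from Myod1 and Myf5 through Myog to the sarcomere genes. Which transcripts differ on a plain Collagen I coat, and whether muscle genes are among them, is the question that the comparison addresses.

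All libraries were of similar depth, between 22598438 and 26231581 counts on Collagen I and between 23812461 and 27334546 in the control. The 9 myotube markers, which include *Myog*, *Ttn*, *Acta1* and *Myh3*, summed to between 8670 and 9240 CPM (read counts scaled to a common library size, with TMM factors) on Collagen I and between 8080 and 9000 CPM in the control. Among markers of other cell types, *Ptprc* and *Adgre1* (leukocytes), *Kdr* (endothelium), *Lep* and *Cidec* (adipocytes) and *Rbfox3* and *Sox10* (neurons and glia) were at 0 counts in all 6 samples, and no endothelial, leukocyte, adipocyte or neural list summed to over 34.4 CPM. Other members of these lists were detected. *Tubb3* had 21.5 to 32.2 CPM in the control and 16.8 to 22.3 CPM on Collagen I, and *Cd68* and *Cd14* passed the filter on low counts. The 8 chondrocyte and osteoblast markers summed to between 153 and 181 CPM on Collagen I and between 167 and 187 CPM in the control. The 7 smooth muscle markers, which include actin-associated genes of many cells, summed to between 1060 and 1320 CPM on Collagen I and between 1040 and 1130 CPM in the control. The 8 fibroblast markers, several of which myoblasts also express, summed to between 2450 and 2640 CPM on Collagen I and between 2450 and 2980 CPM in the control. Of these 8, *Thy1* and *Tcf21* were at 0 counts in all 6 samples. Control and Collagen I samples lay side by side on the first principal component of all 12 samples, which held 44.9% of the variance, at -39.1 to -21.8 and -39.9 to -32.6. The log2 CPM of a Collagen I sample and a control sample correlated across genes at 0.9814 to 0.9912. Those of 2 control samples correlated at 0.9894 to 0.9907, and those of 2 Collagen I samples at 0.9877 to 0.9935. Collagen I sample 3 stood apart on the third component (7.53% of the variance), at 30.9 against -24.7 to 2.5 for the other 5, and mitochondrial transcripts took 11.5% of its counts against 5.14% to 8.28% in those 5. The Geltrex™ libraries varied less among themselves than any other group, with a biological coefficient of variation of 3.74% against 10.7% in the control, 11.6% on Collagen I and 11.1% on fibronectin. They share in the estimate of the spread, so the number of genes called is given with and without them.

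Collagen I changed few genes, and most of these fell. Of the 14499 genes tested, 162 passed an adjusted p of 0.05 (1.12%), of which 29 were higher (0.2%) and 133 were lower (0.917%) on Collagen I. The lowered genes included the vitamin D receptor *Vdr*, the branched-chain amino acid enzyme *Bcat1*, the chemokine receptor *Cxcr4*, the hyaluronan receptor *Cd44* and enzymes of cholesterol synthesis such as *Sqle*. The raised genes included the matrix protease *Adamts5*, the Notch coactivator *Maml3*, the synaptic vesicle gene *Syn2* and the chemokine *Cxcl13*. Changes were small, with a median absolute log2 fold change of 0.6 over the called genes, and 83 of them reached a fold change of 1.5. A fold change of at least 2 together with an adjusted p of at most 0.05, the definition of a DEG, was met by 19 genes (0.131%), 3 higher and 16 lower. Of the 162 genes, 159 are protein coding.

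Values of the called genes did not overlap between the groups, the 29 higher genes having every Collagen I sample above every control sample and the 133 lower genes every Collagen I sample below. Over all genes tested, 1186 (8.18%) lay above in this sense and 1327 (9.15%) below. An unadjusted p under 0.05 was given by 2143 genes (14.8%). In the same model, 31.9% of genes differed between fibronectin and the control, 33% between Geltrex™ and the control, 45% between Collagen I and fibronectin, and 37.1% between Collagen I and Geltrex™. Without the Geltrex™ samples, 46 of 14231 genes passed (0.323%), 6 higher and 40 lower, and all 46 were among the 162. DESeq2 on all samples passed 450 of the 13062 genes to which it gave an adjusted p, 110 higher and 340 lower. That is a larger share than by edgeR, and DESeq2 counts of list members below are to be set against it. The number of calls therefore moved with the model, and 33 genes passed in every one of the 16 alternatives. Each of the 162 genes kept the sign of its log2 fold change wherever it was tested (the strictest filter on counts kept 155). That was nearly fixed in advance, since the genes were called from these same samples and their groups did not overlap.

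**Figure D1:**
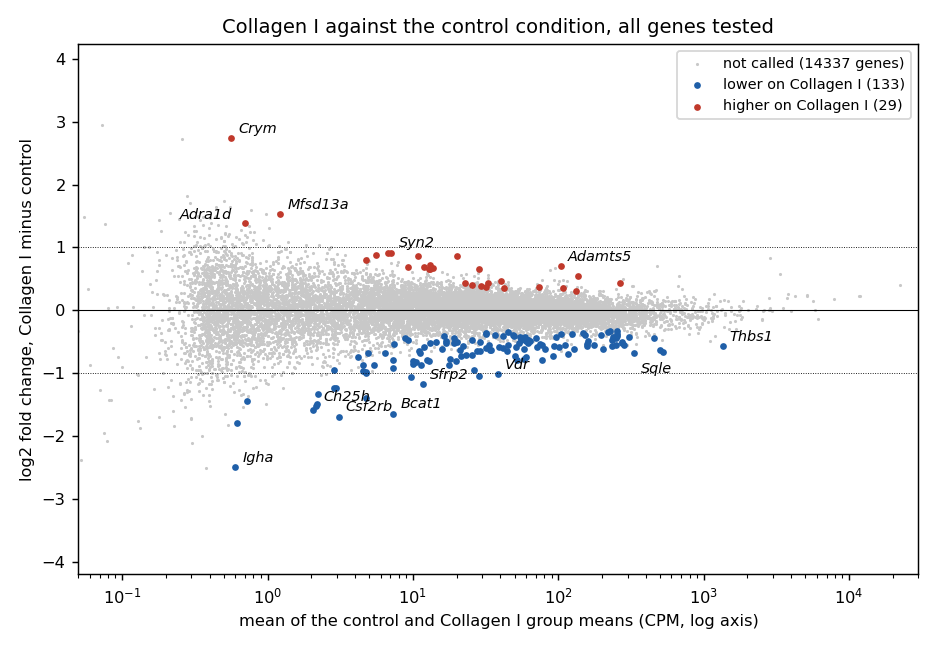
Each point is one of 14499 genes, plotted by the mean of its 2 group means (CPM, log axis) and its log2 fold change, Collagen I minus control, with dotted lines at a fold change of 2. The 133 lower genes (blue) outnumber the 29 higher genes (red), and most called genes lie between the dotted lines.

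**Figure D2:**
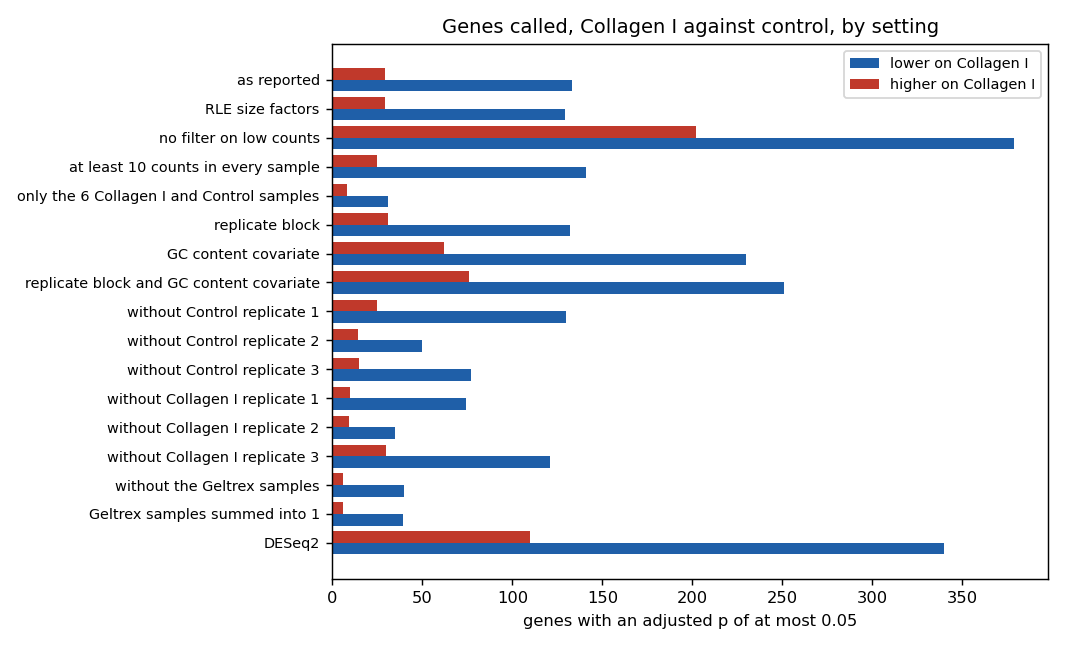
Bars give the number of genes with an adjusted p of at most 0.05 under each way of running the test, lower on Collagen I in blue and higher in red. Lower genes outnumbered higher genes in each setting, between 31 against 8 with only the 6 samples and 379 against 202 with no filter on low counts.

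The smallest p-value belonged to *Vdr*, the nuclear receptor for vitamin D (ENSMUSG00000022479, chr15:97854425-97910630 in GRCm38). Its level was 49.8, 50.6 and 53.5 CPM in the control and 24.6, 24.6 and 27.2 CPM on Collagen I. The log2 fold change was -1.01 (SE 0.0804, edgeR adjusted p = 1.99e-05, and 0.000392 without the Geltrex™ samples). The Collagen I samples were also below all fibronectin samples, at 61.4 to 67.7 CPM, and all Geltrex™ samples, at 45.3 to 50.6 CPM, with log2 differences of -1.33 (adjusted p = 8.64e-09) and -0.89 (adjusted p = 4.93e-07). Collagen I was thus the lowest of the 4 conditions for *Vdr*.

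*Bcat1* encodes the cytosolic transaminase that starts the breakdown of leucine, isoleucine and valine. It stood at 11, 11.4 and 11 CPM in the control and at 3.6, 4.09 and 2.98 CPM on Collagen I. The 2 groups were far apart relative to their spread, with a log2 fold change of -1.64 (SE 0.147, edgeR adjusted p = 5.57e-05, and 0.000492 without the Geltrex™ samples). On fibronectin the gene ran at 37.9 to 52.7 CPM and on Geltrex™ at 11.8 to 14 CPM, so that Collagen I was lowest and fibronectin highest.

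*Csf2rb*, the common β chain of the receptors for GM-CSF, IL-3 and IL-5, fell from 5.05, 4.26 and 4.8 CPM to 1.78, 1.26 and 1.34 CPM. Its log2 fold change was -1.69 (SE 0.192, edgeR adjusted p = 0.000674). Here the other coatings were below the control as well, with 2.12 to 2.41 CPM on fibronectin and 1.58 to 2.18 CPM on Geltrex™. The difference of Collagen I from fibronectin passed the threshold (-0.63, adjusted p = 0.02), and that from Geltrex™ did not (-0.34, adjusted p = 0.216).

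*Cxcr4*, the receptor for Cxcl12, had 74.9, 74.3 and 76.9 CPM in the control and 52.2, 43.2 and 40.7 CPM on Collagen I (log2 fold change -0.73, SE 0.0927, edgeR adjusted p = 0.00141). *Ackr3*, which binds and removes the same chemokine, was named after its values were seen and moved with it, from 170, 185 and 207 CPM to 144, 126 and 117 CPM (-0.54, adjusted p = 0.00718). Both receptors of Cxcl12 were thus lower on Collagen I. *Cxcr4* did not differ between Collagen I and fibronectin beyond the spread (-0.09, adjusted p = 0.441) and was lowest on Geltrex™, at 19 to 20 CPM.

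*Ch25h*, cholesterol 25-hydroxylase, was at 3.5, 2.71 and 3.35 CPM in the control and at 1.21, 1.0 and 1.12 CPM on Collagen I (log2 fold change -1.52, SE 0.194, edgeR adjusted p = 0.00141). The neighboring membrane protein genes *Tmem176b* and *Tmem176a*, which lie head to head on chromosome 6 with annotated spans that overlap, fell together. *Tmem176b* went from 7.32, 7.08 and 6.2 CPM to 3.16, 2.38 and 2.29 CPM (-1.4, adjusted p = 0.000944). *Tmem176a* went from 4.1, 4.33 and 3.65 CPM to 2.08, 1.67 and 1.38 CPM (-1.24, adjusted p = 0.00378). For both, all 3 Collagen I samples lay below all control samples. Of their exonic bases, 3.4% and 2.1% overlap a gene on the opposite strand, and whether counting used the strand is not given in the sources used here.

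*Fam167a* fell by 0.94 on the log2 scale, from 33.9, 39 and 30.6 CPM to 18.6, 19 and 16.2 CPM (SE 0.102, edgeR adjusted p = 0.000492), while Geltrex™ had 15 to 16.2 CPM (Collagen I minus Geltrex™ 0.20, adjusted p = 0.143). *Rin3*, a guanine nucleotide exchange factor for Rab5 GTPases, fell by 0.64 (adjusted p = 0.00204) and *Hnrnpdl*, an RNA-binding splicing regulator, by 0.55 (adjusted p = 0.00141). *Hnrnpdl* was measured at 204, 208 and 217 CPM in the control and at 139, 151 and 139 CPM on Collagen I, with little spread within either group. It was also lower on Collagen I than on fibronectin (222 to 240 CPM, log2 difference -0.71, adjusted p = 1.59e-06) and Geltrex™ (218 to 228 CPM, -0.65, adjusted p = 3.58e-06). Other called genes of splicing, named after their values were seen, were *Srsf5* (-0.55, adjusted p = 0.00532), *Srsf3* (-0.32, 0.0357), *Ptbp1* (-0.38, 0.0199, with 20.7% of its exonic bases overlapping genes on the opposite strand), *Ptbp2* (-0.48, 0.0431) and *Srrm1* (-0.38, 0.0372). Of these 5, *Srsf5* also passed without the Geltrex™ samples (adjusted p = 0.0363) and the other 4 did not (0.0953 to 0.142).

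**Figure D3:**
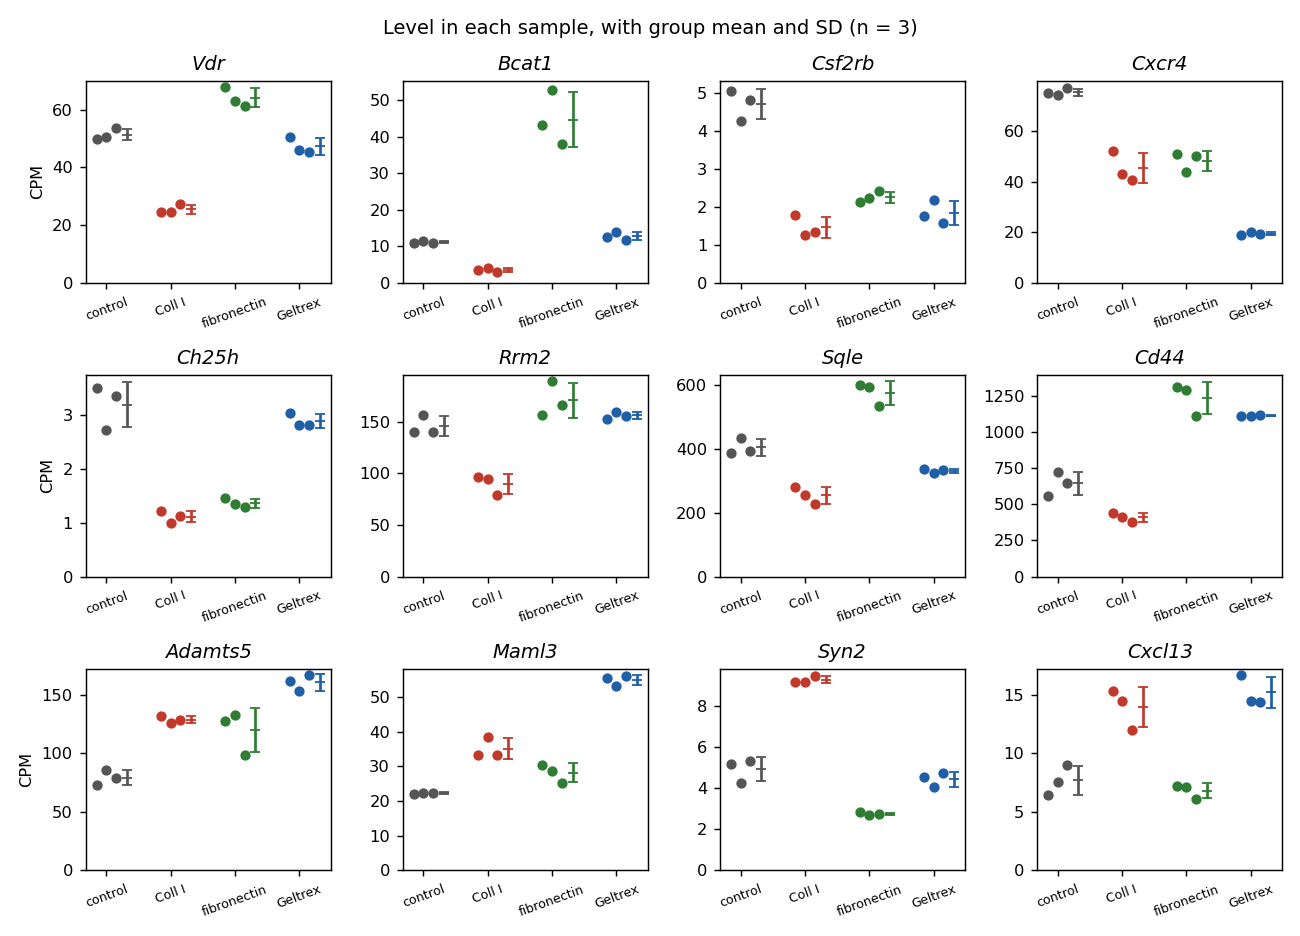
Panels give the CPM of 12 genes in each of the 12 samples (points) with the group mean and SD (n = 3), by coating. The Collagen I samples lie below the control in the first 8 panels and above it in the last 4, and the level on fibronectin and Geltrex™ differs from gene to gene.

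The raised genes were fewer and mostly of low or moderate level. *Adamts5*, an aggrecan-cleaving secreted protease, rose from 72.8, 85.7 and 79.1 CPM to 132, 126 and 129 CPM (log2 fold change 0.70, SE 0.101, edgeR adjusted p = 0.00279). Fibronectin samples had 98.4 to 133 CPM (Collagen I minus fibronectin 0.11, adjusted p = 0.393) and Geltrex™ samples were higher, at 153 to 167 CPM (-0.32, adjusted p = 0.0213). *Maml3*, a coactivator of the Notch transcription complex, rose from 21.9, 22.4 and 22.4 CPM to 33.2, 38.6 and 33.4 CPM (0.66, SE 0.0891, adjusted p = 0.00204). For *Adamts5* and *Maml3* the uncoated plates had the lowest level of the 4 conditions.

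*Syn2*, a synapsin that coats synaptic vesicles in neurons, showed the other pattern. It was at 5.17, 4.26 and 5.35 CPM in the control and at 9.19, 9.18 and 9.49 CPM on Collagen I (log2 fold change 0.92, SE 0.128, edgeR adjusted p = 0.00224). On fibronectin it had 2.72 to 2.82 CPM and on Geltrex™ 4.04 to 4.73 CPM, so that Collagen I was the highest of the 4, with log2 differences of 1.74 (adjusted p = 1.07e-07) and 1.06 (adjusted p = 1.27e-05). *Cxcl13*, a B cell chemokine, had 6.48, 7.59 and 9.0 CPM in the control and 15.3, 14.5 and 12 CPM on Collagen I (0.86, adjusted p = 0.00586). *Afg1l*, a mitochondrial ATPase (0.66, adjusted p = 0.00586), and *Enox2*, a cell surface oxidase (0.72, adjusted p = 0.00586), were raised with no overlap between groups. *Cxcl13*, *Afg1l* and *Enox2* were higher on Collagen I than on fibronectin (edgeR adjusted p at most 0.0133). None of them differed from Geltrex™ beyond the spread (edgeR adjusted p = 0.482, 0.0511 and 0.983). On Geltrex™, *Cxcl13* had 14.4 to 16.7 CPM and *Enox2* 15 to 18.1 CPM.

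*Klf12*, a zinc finger repressor (0.91, adjusted p = 0.0142), *Itpr2*, an inositol trisphosphate receptor that releases calcium from the endoplasmic reticulum (0.48, 0.0171), *Bcr* (0.36, 0.0196), *Fancg*, a Fanconi anemia DNA repair gene (0.80, 0.0243), and *Frmd6*, an upstream Hippo pathway protein (0.54, 0.0247), complete, with *Mfsd13a* below, the 12 raised genes of at least 1 CPM with the smallest p. None of these 5 passed without the Geltrex™ samples, where their adjusted p lay between 0.0608 and 0.106. Of the 12 lowered genes with the smallest p, *Vdr*, *Bcat1*, *Fam167a*, *Csf2rb*, *Tmem176b*, *Cxcr4*, *Egr3*, *Hnrnpdl*, *Ch25h*, *Sqle*, *Rrm2* and *Rin3*, all 12 passed without them.

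Several of the 19 DEGs were near the detection limit. The 3 higher DEGs were *Crym*, a thyroid hormone-binding protein, *Mfsd13a*, a transporter-like membrane protein, and *Adra1d*, an α1 adrenergic receptor. *Crym* had 0.119, 0.22 and 0.0849 CPM in the control, 11 counts in all, and 0.953, 1.19 and 0.819 CPM on Collagen I, 73 counts in all (log2 fold change 2.74, SE 0.539, edgeR adjusted p = 0.0226). No sample on fibronectin or Geltrex™ exceeded 0.26 CPM, and the log2 differences of Collagen I from them were 2.88 (adjusted p = 0.000657) and 3.7 (adjusted p = 0.000268). *Mfsd13a* (1.53, adjusted p = 0.0226) rested on 48 counts in the control and 133 on Collagen I, and *Adra1d* (1.40, adjusted p = 0.0421) on 29 and 74. None of the 3 passed without the Geltrex™ samples (adjusted p between 0.0646 and 0.117), while *Crym* passed with the 6 samples of the comparison alone (adjusted p = 0.0419).

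Among the 16 lower DEGs, *Igha*, an immunoglobulin heavy chain constant gene not known as a muscle product, had 78 counts in the control and 13 on Collagen I (-2.49, SE 0.453, edgeR adjusted p = 0.0137). *Sla*, a Src-like adaptor (-1.78, adjusted p = 0.0497), and *Glcci1* (-1.44, 0.0431) were likewise near 1 CPM in the control. Of the exonic bases of *Glcci1*, 69.8% overlap another gene on the same strand, and for *Gm42793* (-1.49, 0.0426) the share is 24.7%, the overlapping gene being *Spp1*, so counts of both are uncertain. *Fmod*, the collagen-binding proteoglycan fibromodulin, went from 3.66, 2.68 and 2.93 CPM to 1.56, 0.855 and 0.69 CPM (-1.58, 0.024). *Lrrc32*, which anchors latent TGF-β (-1.33, 0.0123), *Adam12*, a metalloprotease of fusing myoblasts (-1.23, 0.00611), and *Sfrp2*, a secreted Wnt modulator (-1.17, 0.00301), fell by more than the median called gene. *Car3*, the carbonic anhydrase of slow muscle, fell from 33.4, 32.1 and 49.2 CPM to 20.3, 14.1 and 21.1 CPM (-1.05, SE 0.2, 0.0181), and *Lrp8*, an apolipoprotein E receptor, from 12.9, 13 and 13.5 CPM to 5.63, 6.73 and 6.6 CPM (-1.05, SE 0.144, 0.00221). With *Vdr*, *Bcat1*, *Csf2rb*, *Ch25h*, *Tmem176a* and *Tmem176b*, these are the 16. *Sla*, *Glcci1*, *Gm42793*, *Fmod* and *Car3* did not pass without the Geltrex™ samples (adjusted p = 0.0555 to 0.122).

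More called genes fell in sterol and fatty acid synthesis than in any other of the gene lists examined. Cells make cholesterol from acetyl-CoA through the mevalonate pathway, and the transcription factor Srebf2, with Srebf1 for fatty acids, raises the genes of these pathways together when membrane cholesterol is low. Of 39 list members, all tested, 6 fell and none rose (15.4% called, against 1.12% of all genes), and the median log2 fold change was -0.28, against -0.003 over all genes. Log2 fold changes were negative for 33 members, 17 members had every Collagen I sample below every control sample (9.15% of all genes did), and 22 had an unadjusted p under 0.05 (14.8% of all genes). DESeq2 passed 12 members (450 of all 13062 genes). Without the Geltrex™ samples only *Sqle* passed, while over all alternatives the median of the list lay between -0.33 and -0.19.

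*Sqle*, squalene epoxidase, a control point of cholesterol synthesis, was measured at 388, 435 and 393 CPM in the control and at 281, 255 and 228 CPM on Collagen I. Its log2 fold change was -0.67 (SE 0.087, edgeR adjusted p = 0.0015). *Idi1*, isopentenyl diphosphate isomerase, fell from 60.6, 81.6 and 78 CPM to 47.9, 47.3 and 33.9 CPM (-0.77, adjusted p = 0.0247). In both genes Collagen I sample 3 was the lowest, and the groups did not overlap.

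*Hsd17b7*, which acts late in cholesterol synthesis, went from 107, 135 and 119 CPM to 85.7, 85.1 and 71.4 CPM (-0.58, adjusted p = 0.012). *Fdft1*, squalene synthase, went from 273, 292 and 305 CPM to 223, 215 and 219 CPM (-0.41, adjusted p = 0.0111), with 18.3% of its exonic bases overlapping *Ctsb* on the opposite strand. *Fasn*, fatty acid synthase, went from 219, 290 and 223 CPM to 169, 159 and 150 CPM (-0.61, adjusted p = 0.00869). Each of these genes was thus lowered by less than a factor of 2, with no overlap between the groups.

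Outside the list, and named after their values were seen, *Acat2*, which makes acetoacetyl-CoA for the mevalonate pathway, fell from 90.5, 89.6 and 85.9 CPM to 60.6, 56.9 and 66 CPM (-0.54, adjusted p = 0.00221). *Aacs*, which activates acetoacetate (-0.43, 0.0443), *Acsl3*, a long-chain acyl-CoA synthetase (-0.62, 0.0351), and the lipoprotein receptors *Lrp8* and *Apobr* (-0.94, 0.0383) were also lower. Of these, *Aacs*, *Acsl3* and *Apobr* did not pass without the Geltrex™ samples (adjusted p = 0.106 to 0.145). Against fibronectin, the log2 differences were -1.18 for *Sqle*, -1.42 for *Idi1*, -1.02 for *Hsd17b7*, -0.57 for *Fdft1* and -0.92 for *Fasn* (adjusted p at most 1.61e-05 for each). Against Geltrex™ they were -0.39 for *Sqle* (adjusted p = 0.00275), -0.43 for *Hsd17b7* (0.00421) and -0.56 for *Fasn* (0.00065), while *Idi1* (-0.40, 0.0551) and *Fdft1* (-0.04, 0.714) did not pass. These 2 comparisons and that with the control share the Collagen I samples.

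**Figure D4:**
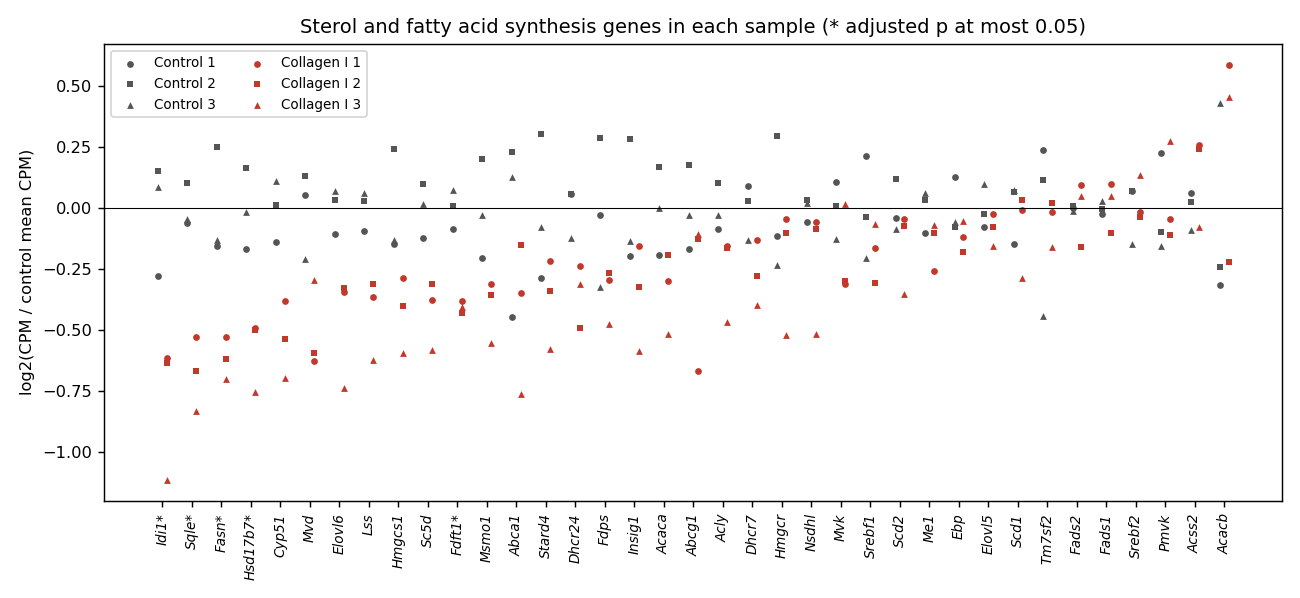
Columns are 37 of the sterol and fatty acid synthesis genes, ordered by log2 fold change, and points are log2(CPM divided by the mean CPM of the control) in each of the 6 samples. Collagen I samples (red) lie below control samples (gray) over most of the left side, where *Idi1* and *Sqle* are among the lowest, and the colors mix toward the right.

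To show what lies before genes of this group, the upstream sequences of *Fasn*, *Hsd17b7* and *Acat2* were read from RefSeq on GRCm38.p6. Of the 162 called genes, 127 were in the promoter table, and so were 4 of the 6 genes *Sqle*, *Idi1*, *Hsd17b7*, *Fdft1*, *Fasn* and *Acat2*. Each sequence is given on the minus strand, 5′ to 3′, ending just before the start of the gene in both annotations used. Capitals mark CCAAT, the core bound by NF-Y, and GGGCGG, the core bound by Sp1 family factors, on either strand. The *Fasn* sequence covers chr11:120824548-120824797, that of *Hsd17b7* chr1:169969242-169969455 and that of *Acat2* chr17:12960748-12960975.
Fasn: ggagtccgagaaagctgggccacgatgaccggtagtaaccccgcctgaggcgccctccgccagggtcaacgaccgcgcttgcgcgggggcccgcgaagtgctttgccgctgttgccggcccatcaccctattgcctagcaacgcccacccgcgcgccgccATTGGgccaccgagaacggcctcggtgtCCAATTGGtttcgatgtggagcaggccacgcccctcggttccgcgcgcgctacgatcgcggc
Hsd17b7: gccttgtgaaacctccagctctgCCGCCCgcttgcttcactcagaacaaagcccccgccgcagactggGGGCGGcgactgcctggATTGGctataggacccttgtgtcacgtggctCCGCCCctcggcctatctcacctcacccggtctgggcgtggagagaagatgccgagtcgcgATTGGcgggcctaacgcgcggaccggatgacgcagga
Acat2: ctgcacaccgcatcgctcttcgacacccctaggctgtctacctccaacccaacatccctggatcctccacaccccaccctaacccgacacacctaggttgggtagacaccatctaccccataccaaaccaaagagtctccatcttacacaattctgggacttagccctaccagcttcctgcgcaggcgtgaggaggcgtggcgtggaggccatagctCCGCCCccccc

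Within 250 bases before the RefSeq start, CCAAT on either strand was present in 3 of the 4 genes (*Fasn*, *Hsd17b7* and *Idi1*) and in 33.8% of 32851 promoter windows of that length. GGGCGG was present in *Hsd17b7*, *Idi1* and *Acat2* and in 32.7% of windows. CACGTG, the E-box form that SREBP proteins also bind, was present in *Hsd17b7* and in 6.02% of windows. TCACNCCAC, a common form of the sterol regulatory element, was in none of the 4 and in 1.05% of windows. In *Fasn* a forward and a reverse CCAAT overlap by 2 bases. These are matches of letters and say nothing of binding in these cells.

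Genes of the DNA replication and mitosis lists had mostly negative log2 fold changes, and 2 of them were called. Of the 35 genes on the mitosis and kinetochore list, none was called, all 35 had a negative log2 fold change, and the median was -0.32. The per-sample median relative to the control mean was -0.256, -0.285 and -0.233 on Collagen I and -0.161, 0.004 and 0.106 in the control. The lowest members were *Kif11*, a spindle motor (-0.65, edgeR adjusted p = 0.0577), and *Hmmr* (-0.61, adjusted p = 0.0703), the latter named after its values were seen. DESeq2 passed 5 members (450 of all 13062 genes). No overlap between the groups was found for 18 members, each with Collagen I below (9.15% of all genes lay below). An unadjusted p under 0.05 was given by 19 (14.8% of all genes). Outside the list, and named after their values were seen, the kinetochore gene *Kntc1* (-0.74, adjusted p = 0.0196), the mitotic kinase *Pbk* (-0.53, 0.0489) and *Iqgap3* (-0.44, 0.0342) were called lower, none of them without the Geltrex™ samples (0.0605 to 0.127).

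Of 44 DNA replication genes, 2 fell and none rose (4.55% called, against 1.12% of all genes), with a median of -0.20. *Rrm2*, a subunit of ribonucleotide reductase, which makes deoxynucleotides, was at 140, 157 and 140 CPM in the control and at 96.2, 94.3 and 78.6 CPM on Collagen I (-0.70, SE 0.0936, edgeR adjusted p = 0.00204). It was lower on Collagen I than in any sample of the other coatings, at 153 to 190 CPM, with log2 differences of -0.93 from fibronectin (adjusted p = 1.78e-06) and -0.80 from Geltrex™ (adjusted p = 7.62e-06). *Mcm7*, of the replicative helicase, fell from 36.1, 36.3 and 36 CPM to 26.8, 26.8 and 30.2 CPM (-0.37, adjusted p = 0.048, and 0.127 without the Geltrex™ samples). *E2f7* had the lowest value of the list (-0.78, adjusted p = 0.0552). *Odc1*, the first enzyme of polyamine synthesis, was named after its values were seen and fell from 109, 116 and 113 CPM to 83.5, 70.8 and 73.8 CPM (-0.56, adjusted p = 0.00416).

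The summed level of markers of undifferentiated myoblasts did not overlap between the groups. The 6 markers, *Pax7*, *Myf5*, *Mki67*, *Ccnd1*, *Id1* and *Id3*, summed to between 141 and 145 CPM in the control and between 108 and 124 CPM on Collagen I. None was called by edgeR or DESeq2, and 2 had an unadjusted p under 0.05 (14.8% of all genes). All 6 log2 fold changes were negative, with a median of -0.29. *Pax7*, at 0.756, 0.367 and 0.552 CPM in the control and 0.26, 0.372 and 0.0863 CPM on Collagen I, had -1.17 (SE 0.493, edgeR adjusted p = 0.287) and overlapped between the groups. *Myf5*, at 31.8 to 36.2 CPM in the control and 28.9 to 37 CPM on Collagen I, had -0.07 (adjusted p = 0.754), and *Ccnd1* had -0.02. *Mki67*, which is also on the mitosis list, went from 47.4, 53.9 and 68.3 CPM to 41.7, 39.7 and 41 CPM (-0.47, edgeR adjusted p = 0.168). It was the 1 marker of the 6 with every Collagen I sample below every control sample, so the sum is not separate from the mitosis values. The part of undifferentiated myoblasts in the lower level of the cell division genes was not tested.

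The known receptors of Collagen I did not differ between the conditions beyond the spread of the samples. Of 10 list members, 7 were tested, and none was called by edgeR or DESeq2 or had an unadjusted p under 0.05. *Itgb1*, the shared β1 chain, was at 1710, 1960 and 1990 CPM in the control and at 1860, 1930 and 1490 CPM on Collagen I (log2 fold change -0.10, SE 0.101, edgeR adjusted p = 0.665). *Itga10*, with 33.5% of its exonic bases overlapping another gene on the same strand, was at 57.2, 46.3 and 42.1 CPM and at 52.5, 56.3 and 56.8 CPM (0.19, adjusted p = 0.603). The groups overlapped for both. *Itga11*, at 2.7, 3.82 and 2.97 CPM and at 2.82, 2.01 and 2.46 CPM (-0.39, adjusted p = 0.401), and *Itga1*, at 0.835 to 1.21 CPM and 0.595 to 1.3 CPM (-0.08, adjusted p = 0.937), were low. *Itga2*, the α2 chain, did not exceed 0.186 CPM in any of the 6 samples and was not tested. *Ddr2* ran at 247 to 326 CPM in the control and 271 to 297 CPM on Collagen I (-0.07, adjusted p = 0.788), and *Ddr1* at 88.2 to 122 CPM and 95.5 to 109 CPM (-0.06, adjusted p = 0.846). Of 15 other integrin subunits and 27 focal adhesion genes, none was called by edgeR, and 1 and 2 passed by DESeq2 (450 of all 13062 genes). An unadjusted p under 0.05 was given by 3 and 7 of them (14.8% of all genes), and the medians were -0.07 and -0.08.

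Most called genes of the matrix were lower on Collagen I, *Adamts5* being the exception. Among 35 matricellular, elastic and proteoglycan genes, 4 fell and none rose (11.4% called, against 1.12% of all genes), with a median of -0.21. *Thbs1*, thrombospondin 1, was at 1420, 1830 and 1600 CPM in the control and at 1160, 1150 and 956 CPM on Collagen I (-0.57, SE 0.129, edgeR adjusted p = 0.0444). *Tnc*, tenascin C, was at 81.6, 92.9 and 83 CPM and at 66.9, 55 and 49.7 CPM (-0.59, adjusted p = 0.00768). *Sdc4*, a heparan sulfate proteoglycan of focal adhesions, was at 225, 246 and 203 CPM and at 173, 166 and 173 CPM (-0.39, adjusted p = 0.0339), and *Fmod* is given above. The first 3 were higher on fibronectin and Geltrex™ than in the control in every sample, with *Tnc* at 192 to 207 CPM and 157 to 171 CPM, so Collagen I was the lowest of the 4 conditions for each. Only *Tnc* of the 4 also passed without the Geltrex™ samples (adjusted p = 0.0411). Fibroblast markers had a median log2 fold change of -0.30 over the 6 tested, 5 of them negative. Of these 6, 3 had an unadjusted p under 0.05 (14.8% of all genes). EdgeR called 1 (16.7%, against 1.12% of all genes) and DESeq2 called 2 (450 of all 13062 genes). The lists share genes, since *Dcn* (0.01) and *Lum* (-0.07) are also in the matricellular list and *Col1a1* in that of collagen chains. The per-sample median of the 6 relative to the control mean was -0.061, -0.371 and -0.278 on Collagen I. In the control it was -0.061, -0.063 and 0.165, overlapping at Collagen I sample 1. The part of fibroblast markers in the matrix values was not tested.

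Of 23 collagen chains, none was called by edgeR and 2 passed by DESeq2 (450 of all 13062 genes). An unadjusted p under 0.05 was given by 9 (14.8% of all genes), 19 had a negative log2 fold change and the median was -0.28. *Col1a1* was at 165, 124 and 138 CPM in the control and at 128, 89.1 and 118 CPM on Collagen I (-0.35, SE 0.12, edgeR adjusted p = 0.175). *Col1a2*, the partner chain, was at 841, 815 and 800 CPM and at 878, 802 and 984 CPM (0.12, adjusted p = 0.557). *Fn1*, fibronectin, was at 5630 to 7040 CPM and 5610 to 6220 CPM (-0.14, adjusted p = 0.52). The 3 overlapped between the groups. *P4ha3*, a collagen prolyl hydroxylase, was the called member among 25 genes of collagen processing (4% called, against 1.12% of all genes). Its log2 fold change was -0.68 (edgeR adjusted p = 0.0273, and 0.0646 without the Geltrex™ samples).

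Of 27 matrix proteases and inhibitors, *Adamts5* rose and *Timp3*, an inhibitor of metalloproteases, fell from 242, 316 and 285 CPM to 221, 187 and 160 CPM (-0.57, SE 0.129, edgeR adjusted p = 0.0443). The 2 calls were 7.41% of that list, against 1.12% of all genes. Of the exonic bases of *Timp3*, 21.3% overlap a gene on the opposite strand. *Cd44*, the hyaluronan receptor, was named after its values were seen, fell from 560, 723 and 649 CPM to 438, 409 and 380 CPM (-0.66, adjusted p = 0.00391) and was far higher on fibronectin (1110 to 1310 CPM) and Geltrex™ (1110 to 1120 CPM). *Pdgfrb*, a growth factor receptor of fibroblasts and other mesenchymal cells, fell from 348, 347 and 356 CPM to 271, 241 and 270 CPM (-0.43, edgeR adjusted p = 0.00768). It was the called member of 6 tested fibroblast markers (16.7% called, against 1.12% of all genes). Without the Geltrex™ samples, *Cd44* passed (adjusted p = 0.0279), and *Timp3* (0.136) and *Pdgfrb* (0.0568) did not.

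Few sarcomere genes were called. Among 13 tested genes of slow fibers, 5 had an unadjusted p under 0.05 (14.8% of all genes), 4 of them higher, and the median was 0.07. Of the 13, 1 rose and none fell (7.69% called, against 1.12% of all genes). The gene was *Mybpc1*, slow myosin-binding protein C, at 14.7, 14.5 and 13.4 CPM in the control and at 31.6, 30 and 16.3 CPM on Collagen I (0.87, SE 0.197, edgeR adjusted p = 0.0443, and 0.118 without the Geltrex™ samples). Collagen I samples 1 and 2 were high and sample 3 lay just above the control samples. Among 13 tested genes of fast fibers, 4 had an unadjusted p under 0.05 (14.8% of all genes), 1 of them higher, and the median was 0.03. Here 1 gene fell and none rose (7.69% called). It was *Myh1*, the myosin heavy chain of fast IIx fibers, which went from 309, 352 and 301 CPM to 231, 230 and 213 CPM (-0.51, SE 0.11, adjusted p = 0.0335, and 0.114 without the Geltrex™ samples).

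The other myosin heavy chains did not pass. *Myh7*, the slow type I and cardiac β chain, was at 26.1, 32.7 and 22.4 CPM in the control and at 42.6, 38.9 and 28.6 CPM on Collagen I, with overlap (0.44, edgeR adjusted p = 0.212). *Myh6*, at 2.55, 2.38 and 2.34 CPM and at 4.98, 3.38 and 3.8 CPM (0.74, adjusted p = 0.175), and *Myh2*, fast IIa, at 22.5, 24.8 and 21.7 CPM and at 21, 18 and 15.8 CPM (-0.33, edgeR adjusted p = 0.258), did not overlap between the groups. *Myh3*, the embryonic chain and the most abundant, had 0.07 (adjusted p = 0.842), *Myh8*, perinatal, 0.10 (0.789), and *Myh4*, fast IIb, 0.15 (0.726), each with overlap. These genes are close paralogs, among which reads can be shared.

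The slow troponins overlapped as well, with *Tnnt1* at 241 to 297 CPM in the control and 270 to 334 CPM on Collagen I, *Tnni1* at 336 to 416 CPM and 367 to 409 CPM, and *Tnnc1* at 996 to 1130 CPM and 879 to 1080 CPM. The slow light chain *Myl2* was at 49.8 to 62.3 CPM and 53.9 to 61.1 CPM. *Ppargc1a*, the coactivator of mitochondrial and slow fiber programs, was at 1.99, 2.35 and 2.0 CPM in the control and at 4.42, 4.87 and 2.54 CPM on Collagen I, with no overlap and sample 3 close to the control. Its log2 fold change was 0.90, and its adjusted p was 0.0752 by edgeR and 0.0432 by DESeq2. *Ckm*, muscle creatine kinase, was named by the rule for the marker lists, at 25.1, 29.8 and 25 CPM and at 35.6, 38.2 and 44.2 CPM with no overlap (0.56, adjusted p = 0.105 by edgeR and 0.0486 by DESeq2).

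Of the myogenic factors, *Myod1* (110 to 140 CPM on Collagen I, 118 to 134 CPM in the control) and *Myog* (276 to 290 CPM and 229 to 303 CPM) overlapped between the groups, with log2 fold changes of -0.03 (edgeR adjusted p = 0.91) and 0.07 (adjusted p = 0.824). *Myf6* had too few counts to be tested. Among 20 myogenic factors and inhibitors, 2 fell (10% called, against 1.12% of all genes). They were *Eya4*, a muscle transcriptional coactivator (-0.58, adjusted p = 0.0186), and *Id2*, which binds E proteins and blocks Myod1 (28.2, 33.4 and 32.8 CPM against 20.7, 17.2 and 20.1 CPM, -0.71, adjusted p = 0.00768). Single members were called lower in the lists of myoblast fusion (*Adam12*) and calcineurin signaling (*Nfatc1*, -0.50, adjusted p = 0.0164), and 2 in that of YAP and SRF targets (*Ankrd2*, a stretch-responsive ankyrin repeat protein, -0.65, 0.00794, and *Crim1*, -0.50, 0.0483). These calls were 5.56%, 3.7% and 6.25% of the tested members of the 3 lists. *Id2*, *Adam12* and *Ankrd2* also passed without the Geltrex™ samples, and *Eya4*, *Nfatc1* and *Crim1* did not (adjusted p = 0.0608 to 0.139).

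**Figure D5:**
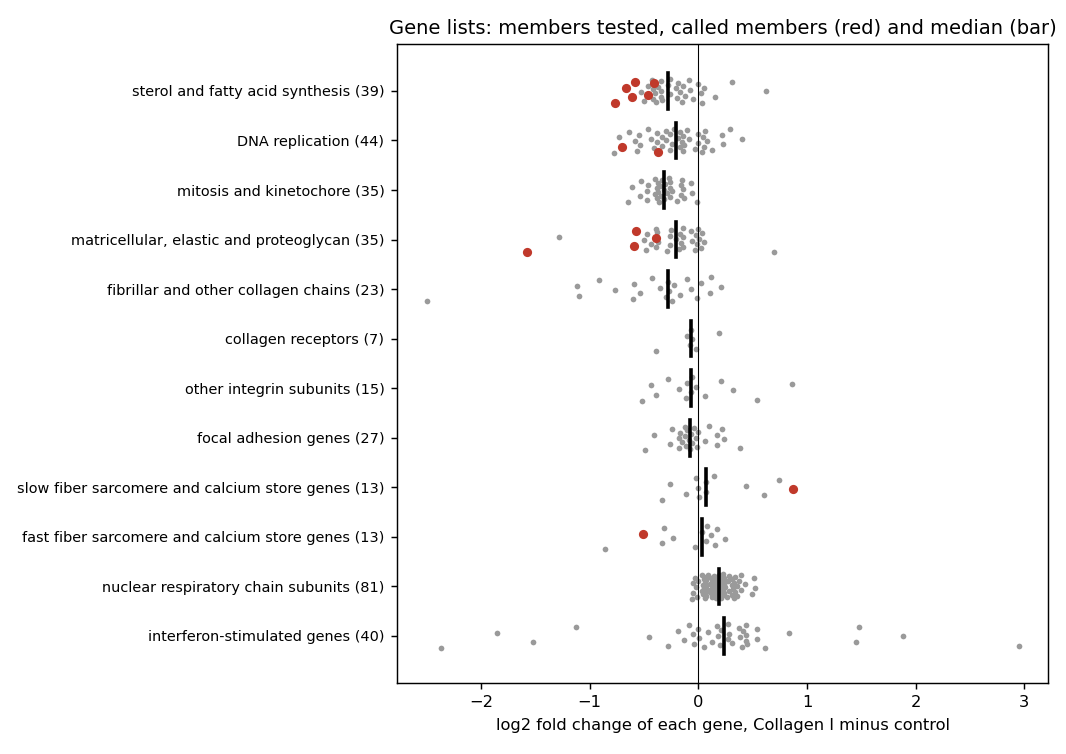
Gray points are log2 fold changes of the tested members of 12 gene lists, red points are called members and bars are medians. Sterol synthesis, cell division, matricellular and collagen genes center below 0. The highest medians are those of interferon-stimulated genes (0.24, with 17 of the 40 averaging under 1 CPM) and respiratory chain genes (0.19). Medians run from -0.32 to 0.24.

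Inducible and signaling genes gave a mixed list. *Egr3*, an immediate-early zinc finger factor, fell from 25.1, 23 and 21.1 CPM to 14.8, 11.1 and 12 CPM (-0.87, SE 0.111, edgeR adjusted p = 0.00141), and its relative *Egr2* from 14.6, 10.7 and 12.8 CPM to 7.67, 6.61 and 7.59 CPM (-0.81, adjusted p = 0.0302). They were the called members of 35 immediate-early and ERK feedback genes (5.71% called, against 1.12% of all genes), whose median was -0.12. *Egr3* was 42.3 to 46.2 CPM on Geltrex™, the highest of the 4 conditions. Growth factor genes that fell included *Fgf7*, a fibroblast growth factor, at 61.2, 53.9 and 74.6 CPM in the control and 36.1, 40.7 and 37.8 CPM on Collagen I (-0.73, adjusted p = 0.00614, and 0.0274 without the Geltrex™ samples). *Vegfa*, the angiogenic factor (-0.38, adjusted p = 0.0253), *Bdnf*, a neurotrophin (-0.40, 0.0321), *Gas6*, a ligand of TAM receptors (-0.87, 0.0265), and the IGF-binding proteins *Igfbp3* (-0.81, 0.024) and *Igfbp7* (-0.54, 0.0275) were called as well, none of them, nor *Egr2*, without the Geltrex™ samples (0.0646 to 0.109). *Fgf7*, *Bdnf* and *Gas6* were named after their values were seen.

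Of Wnt pathway genes, named after their values were seen except for *Sfrp2*, *Sfrp4* (-0.72, edgeR adjusted p = 0.0147), the Dishevelled inhibitor *Nkd2* (-0.87, 0.00224), the R-spondin receptor *Lgr6* (-0.92, 0.00505) and the factor *Tcf7* (-0.39, 0.0226) were lower. *Lgr6* showed little spread, with 9.19, 9.57 and 9.98 CPM in the control and 4.9, 5.13 and 5.13 CPM on Collagen I. *Osmr*, the oncostatin M receptor, and *Stat3*, which carries its signal, were likewise named after the fact and fell by 0.78 (adjusted p = 0.00416) and 0.35 (0.0218). *Snai1*, a zinc finger repressor of epithelial genes also named after its values were seen, fell from 13.6, 13 and 11.8 CPM to 7.28, 6.69 and 7.46 CPM (-0.84, adjusted p = 0.00258). *Efnb2*, a ligand of Eph receptors (0.32, 0.0441), and *Rgmb*, a BMP co-receptor (0.44, 0.0363), were signaling genes among those that rose. Both were named after their values were seen. Without the Geltrex™ samples, *Nkd2*, *Lgr6*, *Osmr* and *Snai1* passed, and *Sfrp4*, *Tcf7*, *Stat3*, *Efnb2* and *Rgmb* did not (adjusted p = 0.0568 to 0.156).

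Metabolic and stress genes gave few calls, and none of the 8 genes named here passed without the Geltrex™ samples (adjusted p between 0.0568 and 0.127). *Pdk4*, which blocks pyruvate oxidation, fell by 0.64 on the log2 scale (edgeR adjusted p = 0.0226) among 31 genes of fatty acid uptake and oxidation (3.23% called). With *Fkbp5* (-0.57, 0.0145) it made up the 2 called of 10 glucocorticoid-inducible genes (20% called, against 1.12% of all genes). *Mthfd2*, of mitochondrial folate metabolism (-0.63, 0.0378), and the cationic amino acid transporter *Slc7a1* (-0.61, 0.039) fell among 31 genes of the ATF4 response (6.45% called), whose median was -0.16. The tRNA synthetases *Iars* (-0.62, 0.0137) and *Gars* (-0.33, 0.0305) were lower outside that list and were named after their values were seen. *Gclc*, which starts glutathione synthesis, fell by 0.60 (0.0265). *Creld2*, an endoplasmic reticulum chaperone, rose by 0.35 (0.0491). No gene of glycolysis was called by edgeR or DESeq2 (33 tested, 4 with an unadjusted p under 0.05 against 14.8% of all genes, median 0.09).

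Most nuclear respiratory chain genes had small positive log2 fold changes, with Collagen I sample 3 ahead. An unadjusted p under 0.05 was given by 25 of the 81 tested (14.8% of all genes). None of the 81 was called by edgeR or DESeq2, 75 had a positive log2 fold change, and the median was 0.19. Their per-sample median relative to the control mean was 0.131, 0.062 and 0.332 on Collagen I and 0.069, -0.03 and -0.041 in the control, so that Collagen I sample 2 lay below the highest control sample. Without Collagen I sample 3, the sample with the large mitochondrial share, the median was 0.09. The 13 mitochondrially encoded messengers, none called by edgeR or DESeq2 and 1 with an unadjusted p under 0.05, had a median of 0.25, and -0.11 without that sample. The 79 cytosolic ribosomal protein genes, of which 72 were positive, none was called by edgeR or DESeq2 and 16 had an unadjusted p under 0.05, had a median of 0.16, and 0.04 without it. The sterol and mitosis medians were -0.25 and -0.36 without the same sample. The further part of that library in these values was not tested.

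Of 40 interferon-stimulated genes, none was called by edgeR and 1 passed by DESeq2 (450 of all 13062 genes). Of the 40, 8 had an unadjusted p under 0.05 (14.8% of all genes). A positive log2 fold change was found for 28, and the median was 0.24. Of the 40, 17 averaged under 1 CPM over the 6 samples, some at or near 0 in all of them, so the sign count and the median rest partly on very few counts. Over the other 23 the median was 0.27, with 19 positive. Over all 40, the per-sample medians relative to the control mean were 0.027, 0.109 and 0.08 on Collagen I and -0.01 to 0.018 in the control. *Apol9a* and *Apol9b*, apolipoprotein L genes and close paralogs that can share reads, were called outside this list and named after their values were seen (0.68, edgeR adjusted p = 0.0247, and 0.67, adjusted p = 0.0265), though not without the Geltrex™ samples (0.0608 and 0.0766). They were at 8.19 to 10.5 CPM and 9.35 to 11.3 CPM in the control, at 13.4 to 16.9 CPM and 13.7 to 17.3 CPM on Collagen I, and highest on Geltrex™, at 45.2 to 59.9 CPM and 42.5 to 53 CPM. Of 14 tested Notch genes, 34 genes of TGF-β and myostatin signaling, 18 clock genes, 23 atrophy genes and 24 genes around PGC-1 and AMPK, none of the list members was called by edgeR, while *Maml3* and *Lrrc32*, described above, lie outside these lists. DESeq2 passed 2, 4, 2, 0 and 1 of the members of these 5 lists (450 of all 13062 genes). An unadjusted p under 0.05 was given by 5, 10, 4, 2 and 2 (14.8% of all genes).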

How the data were processed

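RNA-seq counts of 3 control and 3 Collagen I samples, with 3 fibronectin and 3 Geltrex™ samples in the same model, were analysed. Per the study's methods, the authors used FastQC for read quality, Trimmomatic for trimming, HISAT2 for alignment and featureCounts for counting. Tool versions, genome build, annotation release and strand setting are not given in the sources used here. What the authors deposited is 1 table of whole-number read counts, neither normalized nor filtered, with 0 columns that matched no sample. GENCODE M21 on GRCm38 held all 55536 identifiers and was used for names, positions and exon overlaps. Exon overlap is given as a share of a gene's exonic bases.

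Counts were analysed in R 4.3.3 with edgeR 4.0.16. Genes were kept by filterByExpr (minimum count 10, minimum total 15), TMM set the scaling, and all comparisons came from 1 quasi-likelihood fit of the 4 groups, with Benjamini-Hochberg adjustment over all genes tested. A gene was called at an adjusted p no larger than 0.05, and a called gene with a fold change of 2 or more was a DEG. Standard errors (SE) were derived from the fold change and its F statistic. A list is described by its counts and its median log2 fold change. Principal components used log2 CPM with a prior count of 2. The procedure was tested on simulated data.

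Named genes are all DEGs, the 12 smallest p in each direction with at least 1 CPM and no overlap, called list members and list extremes, and fixed receptor, myosin, troponin, myogenic and matrix genes. Others are marked as named after their values were seen. The comparison, the lists and the rules were chosen with earlier results of these data known. Alternatives were DESeq2 1.42.0, RLE scaling, 2 other filters on low counts, the 6 samples alone, the replicate number as a block, the libraries' GC content as listed by the study, both together, other thresholds, and each sample left out. Leaving out or summing the Geltrex™ samples was chosen after seeing the data. Some called genes and list members are not reported here by name. Counting error limits genes near 1 CPM, and PCR copies were not told apart from molecules. Upstream sequences came from the RefSeq promoter table for GRCm38.p6, less the bases that GENCODE places within the gene.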

Additional observations from a re-analysis of the deposited data

How the results depend on the processing

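The number of calls was not kept under the alternatives. Each of the 162 called genes kept its direction wherever it was tested (155 under the filter of at least 10 counts per sample, all 162 elsewhere). The kept direction was nearly fixed in advance, since the genes were called from these same samples with no overlap between the groups. Genes called (higher and lower in brackets) numbered 39 (8, 31) with the 6 samples alone, 450 (110, 340) by DESeq2, 581 (202, 379) with no filter on low counts, 292 (62, 230) with GC content in the model and 434 (111, 323) at an adjusted p of at most 0.1. Leaving out the Geltrex™ samples gave 46 (6, 40) and summing them into 1 library 45 (6, 39), both chosen after seeing the data. The share of calls that were higher was 17.9% in the report, 34.8% with no filter and 13% without Geltrex™. DEGs (higher and lower in brackets) numbered 43 (14, 29) with no filter, 10 (1, 9) with the 6 samples, 11 (0 higher) without and 10 (0, 10) with summed Geltrex™, 83 (17, 66) at a fold change of 1.5 and 2 (1, 1) at a log2 fold change of 2. Higher DEGs numbered 1 where all 12 samples had to reach 10 counts and 5 with GC content. The cause of these changes was not tested.

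Leaving out 1 sample gave between 44 and 155 called genes, 9 to 30 higher and 35 to 130 lower, and between 10 and 25 DEGs, 0 to 6 higher and 9 to 19 lower. Called genes numbered 44 without Collagen I replicate 2, 64 without Control replicate 2, 84 without Collagen I replicate 1 and 92 without Control replicate 3, and DEGs 10 and 12 without Collagen I replicates 2 and 1. Leaving out a sample also removes a degree of freedom.

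A block for the replicate number gave 163 called genes, 31 higher and 132 lower, of which 145 were among the 162, with 18 DEGs, and with the block and GC content 327, 76 higher and 251 lower, with 5 higher DEGs. The numbers were not taken as pairs, since deviations of same-numbered control and Collagen I samples correlated at -0.154, 0.184 and -0.037.

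The alternatives gave 2080 values for 132 comparisons of named genes. Most were of Collagen I against the control. The rest were of *Vdr*, *Bcat1*, *Hnrnpdl*, *Sqle*, *Syn2* and *Crym* on Collagen I against fibronectin and Geltrex™. Of the 2080 values, 1617 kept direction and side of the threshold, 425 lost and 21 gained significance. The other 17 were log2 fold changes against the control, none of a called gene, that changed sign. These were in *Itga1*, *Ddr1*, *Ddr2*, *Myod1*, *Myog*, *Tnni1* and *Myl2*, whose ranges are given over all settings. *Itga1* ranged from -0.307 to 0.204 (0.0445 without Control replicate 2). *Ddr1* ranged from -0.187 to 0.0371 (0.00339 without Collagen I replicate 2) and *Ddr2* from -0.185 to 0.00831. *Myod1* ranged from -0.134 to 0.0502 (0.019 without Control replicate 3) and *Myog* from -0.0442 to 0.152. *Tnni1* ranged from -0.0845 to 0.0627 (-0.0236 and -0.00553 without Collagen I replicates 1 and 3). *Myl2* ranged from -0.0934 to 0.06 (-0.0334 and -0.0163 without Collagen I replicates 1 and 3). *Myl2* was also at -0.00227 under the stricter filter on counts, -8.12e-05 with the block and -0.000312 without Geltrex™. Depth limits genes near 1 CPM, such as *Crym*, *Igha* and *Sla*.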
